A study of Homo sapiens with 8 samples.

Results

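Of the genes that encode the enzymes and regulators of sterol and fatty acid synthesis, 31 were chosen by symbol, and all 31 were found among the 25603 genes of the expression table. They comprised 19 genes of the cholesterol branch, 8 of the fatty acid branch and 4 regulators of the sterol regulatory element-binding proteins (SREBPs). The values came from RNA-seq of HepG2, an established human hepatic cell line. For 4 days the cells received either EZHi, a pair of EZH1/2 inhibitors made up of 1 µM UNC1999 and 1 µM valemetostat tosylate, or the DMSO vehicle (0.2% per the labels). Each group had 4 libraries, and both were grown in William E medium with serum, insulin and dexamethasone on gelatin. Within the repressive complex PRC2, EZH1 and EZH2 place methyl groups on lysine 27 of histone H3, a mark of repressed genes. The comparison addressed here is how the mRNA of lipid synthesis genes differed when these enzymes were inhibited. A single cell line was studied, and the study describes its 4 replicates as biologically independent, while the labels only number the libraries.

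Hepatocytes make cholesterol and fatty acids from cytosolic acetyl-CoA. In the cholesterol branch, acetyl-CoA is joined into HMG-CoA, reduced to mevalonate, built into isoprene units and squalene, closed into lanosterol and trimmed to cholesterol. In the fatty acid branch it is carboxylated to malonyl-CoA, polymerised to palmitate, and then elongated and desaturated. SREBP-2, encoded by SREBF2, is known as the main activator of the cholesterol branch, and SREBP-1, encoded by SREBF1, of the fatty acid branch. Both are held in the endoplasmic reticulum by INSIG proteins and carried to the Golgi by SCAP when sterols are low.

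Promoter sequences of RefSeq (GRCh38.p14, 250 bases before each annotated start) were matched for 27 of the 31 genes, with ACAT2, FDFT1, SQLE and FASN as the others. The letters CCAAT, the box read by the factor NF-Y, were searched on both strands (ATTGG on the other). They were found before at least 1 start of 14 of 16 cholesterol-branch genes (87.5%), 4 of 7 fatty acid genes (57.1%) and 2 of 4 regulators, against 37% of all 27305 genes with a promoter. A GC box, GGGCGG on either strand, was found in 26 of the 27 genes (96.3%) and in 46.2% of all genes. The classical sterol regulatory element, TCACNCCAC on either strand, was found only in SREBF2 among the 27, and in 1.09% of all genes. These matches describe letters in a window and not bound sites. The following stretches, free of GENCODE 44 exons, were chosen because MVK and MSMO1 belong to the cholesterol branch, ACLY is the fatty acid gene with a called change and SCD is one of the most abundant fatty acid genes. They are written 5′ to 3′ on the strand of the gene, with the CCAAT box in capitals.
MVK (chr12:109573581-109573792, plus strand): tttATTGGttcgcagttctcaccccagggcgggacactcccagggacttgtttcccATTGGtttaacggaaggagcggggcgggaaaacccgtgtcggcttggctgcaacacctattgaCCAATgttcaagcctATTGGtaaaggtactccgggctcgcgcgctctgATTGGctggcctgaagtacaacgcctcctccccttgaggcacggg
MSMO1 (chr4:165327419-165327666, plus strand): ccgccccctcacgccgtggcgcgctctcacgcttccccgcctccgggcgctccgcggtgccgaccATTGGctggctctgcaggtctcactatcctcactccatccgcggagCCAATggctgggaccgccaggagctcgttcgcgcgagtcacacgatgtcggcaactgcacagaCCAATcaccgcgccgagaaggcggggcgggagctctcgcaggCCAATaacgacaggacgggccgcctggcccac
ACLY (chr17:41919023-41919272, minus strand): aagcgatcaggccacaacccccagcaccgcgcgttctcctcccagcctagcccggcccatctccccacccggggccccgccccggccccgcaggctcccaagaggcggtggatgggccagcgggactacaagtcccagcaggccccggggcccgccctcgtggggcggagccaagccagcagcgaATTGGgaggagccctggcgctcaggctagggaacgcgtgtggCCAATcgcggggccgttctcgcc
SCD (chr10:100346983-100347232, plus strand): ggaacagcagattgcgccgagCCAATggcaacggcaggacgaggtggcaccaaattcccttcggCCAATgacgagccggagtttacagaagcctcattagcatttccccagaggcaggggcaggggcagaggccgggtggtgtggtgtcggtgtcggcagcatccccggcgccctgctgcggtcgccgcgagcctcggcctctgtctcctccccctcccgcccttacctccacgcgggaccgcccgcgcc
MVK held 5 boxes in this stretch, MSMO1 held 4, and ACLY and SCD held 2 each. These 4 genes do not stand for their branches. In the cholesterol branch NSDHL also held 5 boxes in its window, but PMVK and CYP51A1 held 0. In the fatty acid branch ELOVL6, FADS1 and FADS2 held 0. In the 29 bases around the sterol regulatory element of SREBF2, the element is in capitals.
SREBF2 (chr22:41832962-41832990, plus strand): tgacgcgccaTCACCCCACgcaccgcttc

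Expression is given as the deposited log2 values, which are corrected for transcript length and comparable between genes, and a level is also given as an estimated FPKM derived from them. Both branches were strongly expressed, and their genes spanned a wide range of levels. FASN, the fatty acid synthase, and SCD, the stearoyl-CoA desaturase, stood at 1140 and 1048 estimated FPKM over all 8 libraries. In the cholesterol branch the levels ran from 6.05 for LSS to 440.2 for FDFT1, with a median of 100.8. The lowest gene tested in the fatty acid branch was ACACA at 2.01. INSIG1, which retains the SREBPs in the endoplasmic reticulum, was listed at 0.0209, between 0.82 and 0.921 normalized reads per library. INSIG1 is known to be expressed in liver cells, no reason for the low value was found in the table, and it is not read here as absence of the mRNA. It fell under the lower limit of 0.1 set for testing, and 30 members were tested.

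**Figure D1:**
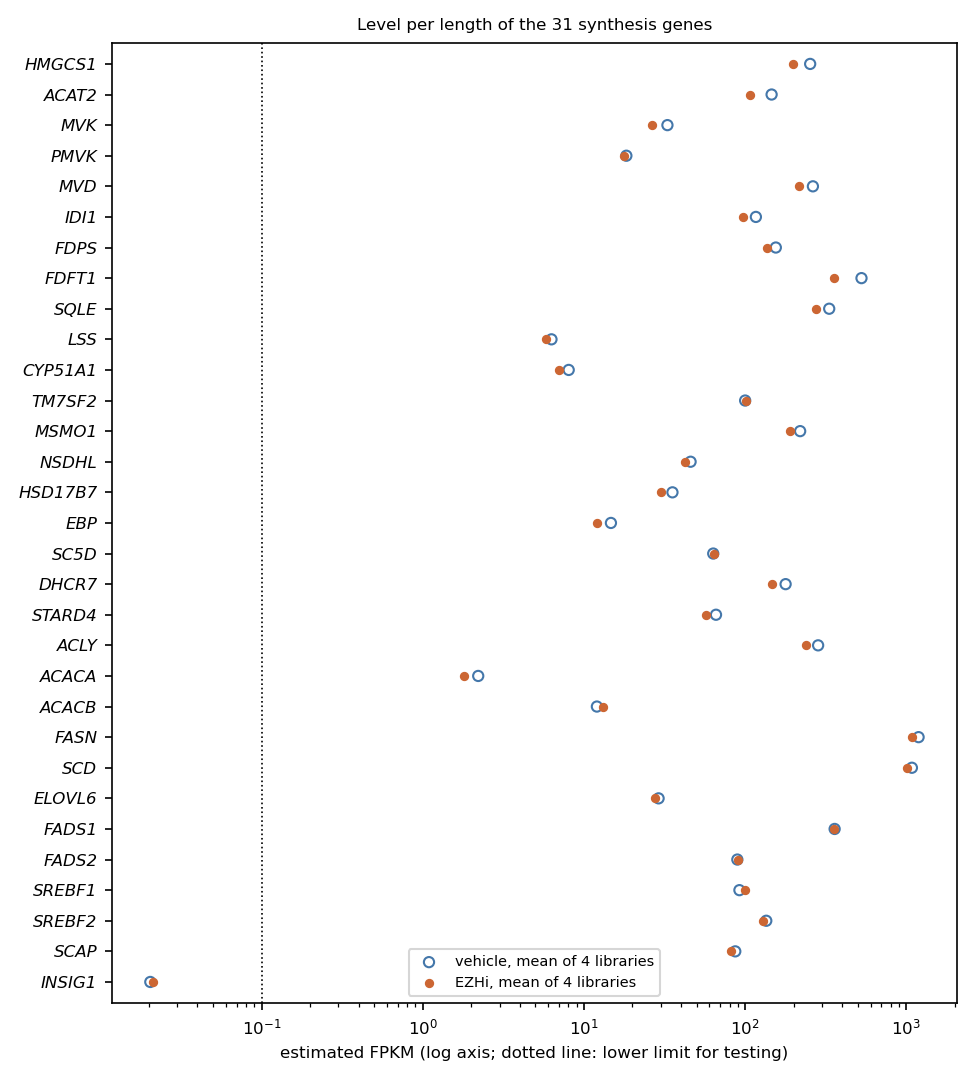
Level per length of the 31 genes, as estimated FPKM on a log axis, in vehicle (open blue circles) and EZHi (filled orange circles), each the mean of 4 libraries. The dotted line marks the lower limit of 0.1 for testing, and INSIG1 alone lies below it, at 0.0209, while FASN at 1140 and SCD at 1048 lie farthest to the right.

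With the treatment group alone in the model, a small number of these genes were lower in EZHi, in similar shares of both branches. With limma, 4 of the 30 members tested had an adjusted p under 0.05 (hereafter called): FDFT1, ACAT2 and MVK of the cholesterol branch and ACLY of the fatty acid branch. All 4 were lower in EZHi, and none was higher. The lower calls make up 15.8% of the 19 cholesterol genes and 12.5% of the 8 fatty acid genes. Of all 20153 genes tested, 13.1% were called, 8.85% higher and 4.27% lower. Among the 7809 genes with at least 10 estimated FPKM, where 27 members lie, 2.73% were higher and 9.16% lower. The labels number the libraries 1 to 4 in each group, and libraries of equal number deviated together, more so in pairs 2 and 3 than in pairs 1 and 4. When the replicate number was entered as a block, 14 members were lower and none was higher. The background then rose to 14.9% higher and 15.1% lower for all genes tested, and to 8.2% higher and 32.5% lower for genes with at least 10 estimated FPKM. The 14 were ACLY and 13 cholesterol genes, namely HMGCS1, ACAT2, MVK, MVD, IDI1, FDPS, FDFT1, SQLE, MSMO1, HSD17B7, EBP, DHCR7 and STARD4. With the block the lower share was thus 68.4% in the cholesterol branch and 12.5% in the fatty acid branch.

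The scaling between libraries bears on these counts, since abundant genes were shifted as a whole. The median log2 fold change was -0.01 over all genes tested and -0.09 over genes with at least 10 estimated FPKM, of which 72.9% had a negative value against 52% of all genes tested. When libraries were centred on those abundant genes, FDFT1 and ACAT2 alone were called, both lower, against 3.44% of genes with at least 10 estimated FPKM. With the block and the centring together, 9 members were lower, namely HMGCS1, ACAT2, MVK, MVD, IDI1, FDFT1, SQLE, DHCR7 and ACLY, against 14.9% of genes with at least 10 estimated FPKM. ACACB and SREBF1 were higher in that fit, against 16.1% of those genes.

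**Figure D2:**
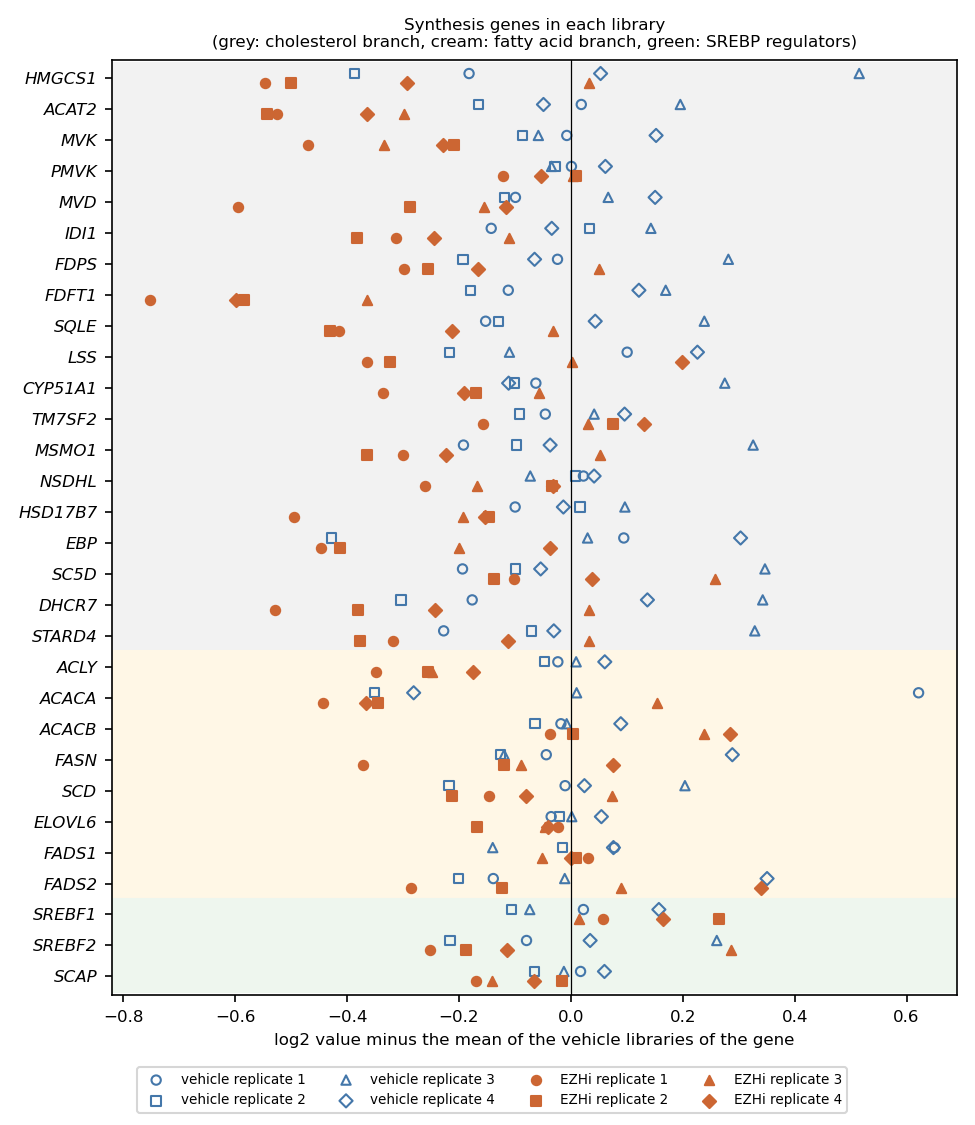
Log2 value of each of the 30 tested genes in each library, minus the mean of the gene in the 4 vehicle libraries. Open blue symbols are vehicle and filled orange symbols EZHi, with 1 symbol shape per replicate number. The EZHi symbols of FDFT1, ACAT2, MVK, HSD17B7 and ACLY all lie left of their vehicle symbols, and the triangles of replicate 3 lie to the right in both groups for many cholesterol genes.

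Among the enzymes that lead from acetyl-CoA to farnesyl diphosphate, ACAT2 and MVK were lower in EZHi. ACAT2 (ENSG00000120437, chr6:159762045-159779112 in GENCODE 44), the cytosolic thiolase that makes acetoacetyl-CoA, had log2 values of 11.88, 11.70, 12.06 and 11.81 in vehicle replicates 1 to 4 and of 11.34, 11.32, 11.56 and 11.50 in EZHi. The groups did not overlap, and the mean fell from 11.86 ± 0.15 to 11.43 ± 0.12 (SD, n = 4). This is a log2 fold change of -0.43 (SE 0.09, limma adjusted p = 0.012), or -25.9%, and the call was lost with quantile normalization (adjusted p = 0.055). Counting ignored strand, and 22.2% of the exonic bases of ACAT2 are shared with other genes, mainly TCP1 and SOD2. TCP1 had a log2 fold change of -0.09 (SE 0.12) and was not called. SOD2 was called lower, with -0.29 (SE 0.08, limma adjusted p = 0.045). What the shared bases mean for the value of ACAT2 was not tested. MVK (ENSG00000110921, chr12:109573255-109598125), the mevalonate kinase with 5 CCAAT boxes in its promoter, had values of 9.71, 9.63, 9.66 and 9.87 in vehicle and of 9.25, 9.51, 9.38 and 9.49 in EZHi. The groups again did not overlap, with a log2 fold change of -0.31 (SE 0.08, adjusted p = 0.034). Its call was lost without vehicle replicate 1 or 4 (log2 fold change -0.31 and -0.26), without EZHi replicate 1, 3 or 4 (-0.26, -0.30 and -0.34), and after centring (adjusted p = 0.12), and it was called with the block (adjusted p = 0.0054).

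HMGCS1, the synthase of cytosolic HMG-CoA, shows how far the replicate number mattered. Its values were 12.44, 12.23, 13.14 and 12.67 in vehicle and 12.07, 12.12, 12.65 and 12.33 in EZHi. The groups overlapped, but EZHi was lower within each of the 4 pairs. The log2 fold change of -0.33 had an SE of 0.19 without the block (adjusted p = 0.32) and of 0.06 with it (adjusted p = 0.0038). Of the exonic bases of HMGCS1, 37.7% are shared with a gene that is absent from the expression table. MVD, the decarboxylase that forms isopentenyl diphosphate, had values of 12.61, 12.60, 12.78 and 12.86 in vehicle and of 12.12, 12.43, 12.56 and 12.60 in EZHi. The lower EZHi value of replicate 1 stood apart, and the log2 fold change was -0.29 (adjusted p = 0.13, and 0.006 with the block). IDI1, the isomerase of that product, had values of 11.40, 11.57, 11.68 and 11.51 in vehicle and of 11.23, 11.16, 11.43 and 11.29 in EZHi. It was lower in 4 of 4 pairs, by -0.26 on the log2 scale (adjusted p = 0.066, and 0.0047 with the block), and it passed the threshold without the block when EZHi replicate 3 was left out (-0.31). FDPS, the farnesyl diphosphate synthase, had values of 11.92, 11.75, 12.22 and 11.88 in vehicle and of 11.65, 11.69, 11.99 and 11.78 in EZHi. Its log2 fold change was -0.17 (adjusted p = 0.39, and 0.033 with the block), and it was not called with the block when pair 1, 3 or 4 was left out. Reads of its near-identical pseudogene copies may be lost or split. PMVK, which phosphorylates the product of MVK, was between 8.75 and 8.94 in all 8 libraries, with a 95% confidence interval of the log2 fold change from -0.18 to 0.10.

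FDFT1, the squalene synthase that commits farnesyl diphosphate to sterols, had the largest change of the 30 members tested. Its log2 values were 13.60, 13.53, 13.88 and 13.83 in vehicle and 12.96, 13.13, 13.35 and 13.11 in EZHi. Every EZHi library was below every vehicle library, and the mean fell from 13.71 ± 0.17 to 13.14 ± 0.16 (SD, n = 4). The log2 fold change was -0.57 (SE 0.11, adjusted p = 0.0062), or -32.9%, which took the level from 526.9 to 353.4 estimated FPKM. The gene was called in each of the 8 fits that left out 1 library, as was ACAT2. SQLE, the squalene epoxidase, had values of 12.89, 12.92, 13.28 and 13.09 in vehicle and of 12.63, 12.61, 13.01 and 12.83 in EZHi. The groups overlapped, with EZHi lower in 4 of 4 pairs and a log2 fold change of -0.27 (SE 0.12, adjusted p = 0.17). With the block the SE was 0.04 and the adjusted p 0.0013. LSS, which closes the ring to lanosterol, had the lowest estimated FPKM of the branch, and its log2 fold change of -0.12 had a confidence interval from -0.46 to 0.21.

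After lanosterol, none of the genes was called without the block, and 4 of the enzymes were called with it, all lower. MSMO1, the C4-methyl sterol oxidase, had values of 12.25, 12.34, 12.77 and 12.40 in vehicle and of 12.14, 12.08, 12.49 and 12.22 in EZHi. Its log2 fold change was -0.21 (adjusted p = 0.33, and 0.0089 with the block). HSD17B7, a sterol ketoreductase that also has a near-identical pseudogene copy, had values of 9.72, 9.84, 9.92 and 9.81 in vehicle and of 9.33, 9.68, 9.63 and 9.67 in EZHi. Its groups did not overlap, but EZHi replicate 1 stood below the other EZHi libraries, and the log2 fold change of -0.25 had an adjusted p of 0.11 (0.0097 with the block). EBP, the sterol isomerase, had values of 8.63, 8.10, 8.56 and 8.84 in vehicle and of 8.09, 8.12, 8.33 and 8.50 in EZHi. It was lower in 3 of 4 pairs, with a log2 fold change of -0.27 (adjusted p = 0.30, and 0.04 with the block). Of the exonic bases of EBP, 36.4% are shared with a gene that is absent from the expression table. DHCR7, which performs the final reduction of the Kandutsch-Russell route, had values of 11.96, 11.83, 12.48 and 12.27 in vehicle and of 11.60, 11.75, 12.17 and 11.89 in EZHi. Its log2 fold change was -0.28 (adjusted p = 0.30, and 0.006 with the block). Without pair 3 the block called neither MSMO1, HSD17B7 nor EBP, and EBP was also not called without pair 1 or pair 4.

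The other enzymes of this stretch were not called without the block or with the block alone. CYP51A1, the lanosterol demethylase, had a log2 fold change of -0.19 (confidence interval -0.43 to 0.05), and 74.1% of its exonic bases are shared with other genes. It was called lower with the block combined with quantile normalization (adjusted p = 0.041), as were 2816 of all 20153 genes tested. NSDHL, a sterol dehydrogenase, had -0.12 (-0.28 to 0.03). TM7SF2 and SC5D, a sterol reductase and a sterol desaturase, had the only positive values of the branch, 0.02 (-0.15 to 0.19) and 0.01 (-0.27 to 0.30). STARD4, which is a cytosolic sterol carrier and not an enzyme, had values of 10.48, 10.64, 11.04 and 10.68 in vehicle and of 10.39, 10.33, 10.74 and 10.59 in EZHi. It was lower in 4 of 4 pairs by -0.19 on the log2 scale, and was called with the block (adjusted p = 0.026) but not without it (0.39), nor with the block when pair 2 or pair 3 was left out.

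In the fatty acid branch the lower call was ACLY, and the genes downstream of it were not called. ACLY (ENSG00000131473), the ATP citrate lyase that makes the cytosolic acetyl-CoA used by both branches, lies at chr17:41866917-41930542 on the minus strand. Its log2 values were 12.80, 12.78, 12.83 and 12.89 in vehicle and 12.48, 12.57, 12.58 and 12.65 in EZHi. The groups did not overlap, the spread within each was small, and the log2 fold change was -0.26 (SE 0.06, adjusted p = 0.022), or -16.3%. The call was lost without vehicle replicate 4 (-0.24), EZHi replicate 1 (-0.23) or EZHi replicate 2 (-0.26), and after centring (adjusted p = 0.14). With the block the adjusted p was 0.0023, and with block and centring 0.014.

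The carboxylases that make malonyl-CoA did not pass the test and had values of opposite sign. ACACA, the cytosolic form, had values of 6.39, 5.42, 5.78 and 5.49 in vehicle and of 5.32, 5.42, 5.92 and 5.40 in EZHi. Vehicle replicate 1 was higher than every other library, and the log2 fold change moved from -0.25 (SE 0.22) to -0.04 when it was left out. ACACB, the mitochondrial form that limits fatty acid oxidation, had values of 8.25, 8.20, 8.26 and 8.35 in vehicle and of 8.23, 8.27, 8.50 and 8.55 in EZHi, with a log2 fold change of 0.12 (SE 0.09, adjusted p = 0.44). With block and centring together its adjusted p was 0.031. FASN had a log2 fold change of -0.13 (confidence interval -0.40 to 0.15) and SCD of -0.09 (-0.32 to 0.14). ELOVL6, the elongase of palmitate, had -0.07 (-0.20 to 0.07). The desaturases of polyunsaturated fatty acids FADS1 and FADS2 had -0.0029 (-0.15 to 0.15) and 0.01 (-0.34 to 0.35). The intervals of ELOVL6 and FADS1 leave out the estimate of ACLY, whereas the intervals of FASN, SCD and FADS2 hold it. The interval of ACLY itself, -0.39 to -0.12, overlaps all of these. Differences between genes were not tested, and overlap of intervals cannot decide whether changes were equal. With the block the intervals of SCD (-0.21 to 0.02) and FADS2 (-0.11 to 0.12) also leave out the ACLY estimate, and that of FASN (-0.29 to 0.03) does not. The block interval of ACLY, -0.35 to -0.16, overlaps those of SCD, FASN and ELOVL6 (-0.18 to 0.04). It does not overlap those of FADS1 (-0.11 to 0.10) and FADS2.

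**Figure D3:**
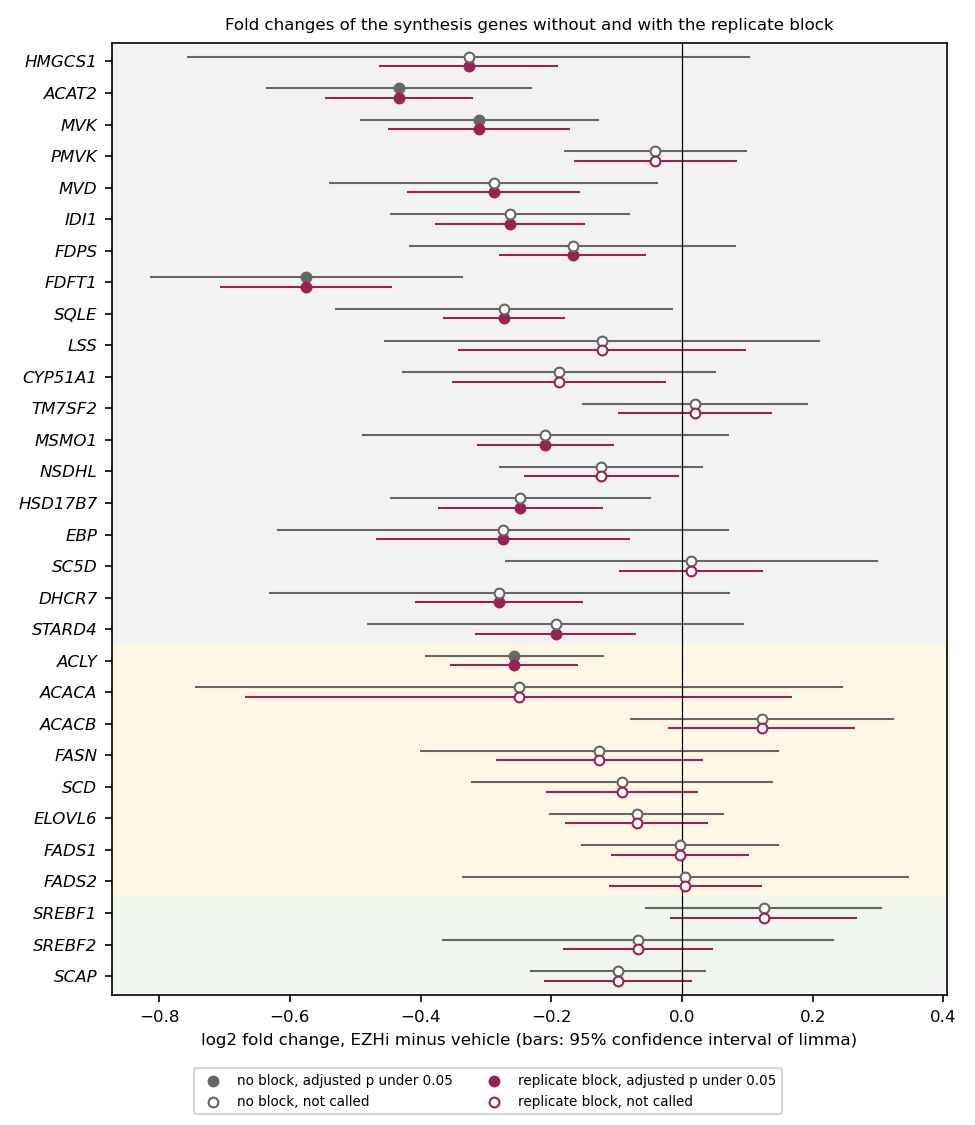
Log2 fold change of the 30 tested genes, EZHi minus vehicle, with the 95% confidence interval of limma, without the block (grey) and with the replicate number as a block (purple). Filled points have an adjusted p under 0.05. The estimates are identical in both fits, and narrower intervals raise the lower calls from 4 to 14.

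None of the 3 SREBP regulators tested was called without the block or with the block alone. SREBF1 had values of 11.22, 11.09, 11.13 and 11.36 in vehicle and of 11.26, 11.46, 11.21 and 11.36 in EZHi. It was higher in 4 of 4 pairs, as were 20.6% of all genes tested, although the values of pair 4 were nearly equal, and the log2 fold change was 0.13 (SE 0.08, adjusted p = 0.37, and 0.18 with the block). Among the fits run, SREBF1 was called higher only when the block was combined with centring (adjusted p = 0.015) or with quantile normalization (0.0093), a fit in which 14.4% of genes with at least 10 estimated FPKM were higher. SREBF2 had values of 11.67, 11.53, 12.01 and 11.78 in vehicle and of 11.49, 11.56, 12.03 and 11.63 in EZHi. The groups overlapped widely, with a log2 fold change of -0.07 (confidence interval -0.37 to 0.23, and -0.18 to 0.05 with the block). SCAP, the escort of both SREBPs, had values of 11.13, 11.05, 11.11 and 11.18 in vehicle and of 10.95, 11.10, 10.98 and 11.05 in EZHi, with a log2 fold change of -0.10 (SE 0.06, adjusted p = 0.35). INSIG1 had values of -0.94, -0.94, -0.93 and -0.94 in vehicle and of -0.86, -0.94, -0.77 and -0.94 in EZHi, which differ by a fraction of a read.

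Set side by side, the cholesterol branch stood lower in EZHi in every pair, and the fatty acid branch did not. The mean log2 value of the 19 cholesterol genes was 10.89 ± 0.14 in vehicle and 10.66 ± 0.14 in EZHi (SD, n = 4), a difference of -0.23. Within pairs 1 to 4 the difference was -0.31, -0.15, -0.24 and -0.21. The 8 fatty acid genes averaged 11.29 ± 0.09 and 11.21 ± 0.11, a difference of -0.08, with -0.26, -0.02, 0.02 and -0.08 within pairs. The cholesterol mean minus the fatty acid mean was thus lower in EZHi by -0.05, -0.13, -0.26 and -0.13 in the 4 pairs, and by -0.14 between groups. These means are descriptions without a test, because the genes were chosen with results of these data known. Centring moved the cholesterol difference to -0.13 and turned the fatty acid difference to 0.01, and by its construction it cannot move the difference between branches. Quantile normalization, which can, gave -0.14 for the cholesterol branch, -0.052 for the fatty acid branch and -0.092 for the difference between them. Without vehicle replicate 3 the difference between branches was -0.085, and the fatty acid difference was -0.044 without EZHi replicate 1 and -0.13 without vehicle replicate 2.

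**Figure D4:**
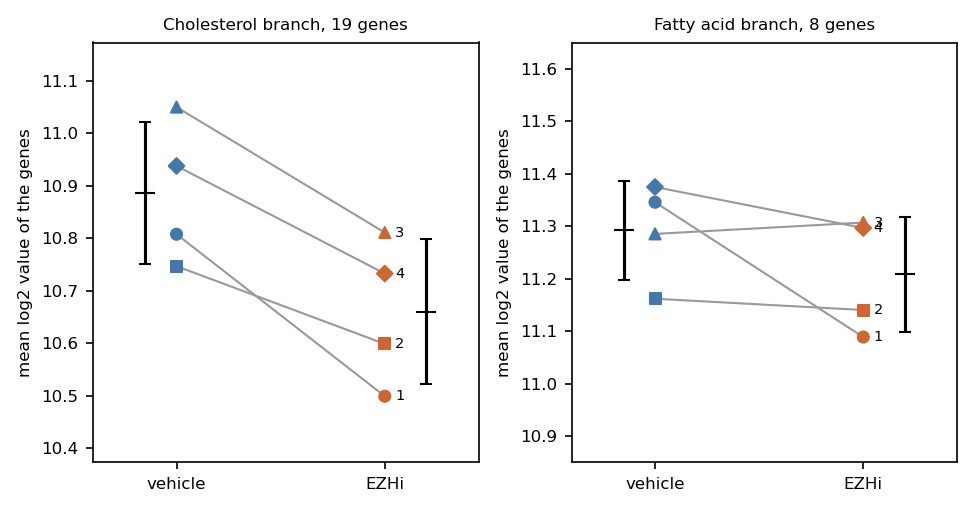
Mean log2 value of the 19 cholesterol genes (left) and the 8 fatty acid genes (right) in each library, with lines joining libraries of equal replicate number and black bars for mean ± SD of the 4 libraries. All 4 lines fall in the left panel, from -0.15 to -0.31, whereas in the right panel the differences run from -0.26 to 0.02.

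Gene by gene, 17 of the 19 cholesterol genes had a negative log2 fold change, with a median of -0.25, against 6 of 8 fatty acid genes with a median of -0.08. After centring these counts were 16 of 19 and 3 of 8, with medians of -0.15 and 0.01. With quantile normalization they were 16 of 19 and 4 of 8, with medians of -0.17 and -0.02. Within pairs, 14 of the 19 cholesterol genes were lower in all 4, against 1 of 8 fatty acid genes, 24.2% of all genes tested and 44.6% of genes with at least 10 estimated FPKM. The groups did not overlap for 4 cholesterol genes (ACAT2, MVK, FDFT1 and HSD17B7) and for ACLY, all lower. Of all genes tested 7.93% were lower without overlap, and of those with at least 10 estimated FPKM 16.1%.

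The cholesterol genes also varied with the replicate number, in both groups alike. In 11 of 19 (57.9%) the highest library was replicate 3 in vehicle and in EZHi, which held for 1 of 8 fatty acid genes (12.5%) for 18.8% of all genes tested and for 22.8% of those with at least 10 estimated FPKM. HMGCS1, SQLE, MSMO1, DHCR7 and STARD4 are examples. In the median cholesterol gene the replicate number carried 57.6% of the variance over the 8 libraries and the treatment 27.6%. The corresponding shares were 63.3% and 13% in the fatty acid branch, 46.5% and 21.3% over all genes tested, and 53.7% and 26.4% over genes with at least 10 estimated FPKM. These are raw shares of sums of squares, and the replicate number takes more degrees of freedom than the treatment. They compare gene sets and do not rank the replicate number against the treatment. Hepatocyte markers shared this order, with replicate 3 highest in both groups for 7 of 8 (87.5%). Beyond the study's description of the replicates as biologically independent, what libraries of equal number share is not given in the sources used here.

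Genes of the same pathways outside the 31 were taken from 7 lists of 77 genes, of which 70 were tested. Without the block 6 were higher and 8 lower, and with it 11 were higher and 20 lower. The shares without the block were 8.57% higher and 11.4% lower, beside 8.85% and 4.27% of all genes tested and 2.73% and 9.16% of those with at least 10 estimated FPKM. With the block they were 15.7% and 28.6%, beside 14.9% and 15.1% of all genes and 8.2% and 32.5% of the abundant ones, so that these counts are not read as particular to the lists. In the list named other sterol synthesis, GGPS1, which makes the non-sterol product geranylgeranyl diphosphate, was lower with a log2 fold change of -0.35 (SE 0.09). In the list for SREBP processing and lipid regulation, NR1H2, the oxysterol receptor LXR-beta, was lower with -0.34 (SE 0.08). Among the genes for sterol uptake, storage and efflux, ABCG1, a sterol exporter, was higher by 0.50 (SE 0.13, adjusted p = 0.03), at a level of only 0.124 estimated FPKM. With the block 3 of the 6 genes in the list named other sterol synthesis were lower. Of the 10 regulators 1 was higher and 4 lower, and of the 13 genes for uptake, storage and efflux 4 were higher and 2 lower.

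On the fatty acid side, the calls outside the 8 genes went both ways. Of 15 other fatty acid synthesis genes, the elongases ELOVL3 and ELOVL7 were higher, by 0.91 (SE 0.17) and 0.65 (SE 0.09) on the log2 scale, and none was lower without the block. With the block 2 of the 15 were higher and 4 lower. Of 9 triglyceride genes, GPAM and AGPAT2, acyltransferases of the glycerol backbone, were higher by 0.64 (SE 0.12) and 0.40 (SE 0.08). LPIN2, a phosphatidate phosphatase, was lower by -0.53 (SE 0.06). In the list for fatty acid oxidation, CPT1A, which admits fatty acids to mitochondria, was lower by -0.45 (SE 0.11). Of 6 genes that supply NADPH, TKT, a transketolase, was lower by -0.33 (SE 0.07), and with the block 4 of the 6 were lower. In fits that left out 1 library, ELOVL3, ELOVL7, GPAM, AGPAT2 and LPIN2 were called in 8 of 8, TKT in 7, CPT1A in 4, GGPS1 in 3, and NR1H2 and ABCG1 in 2.

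**Figure D5:**
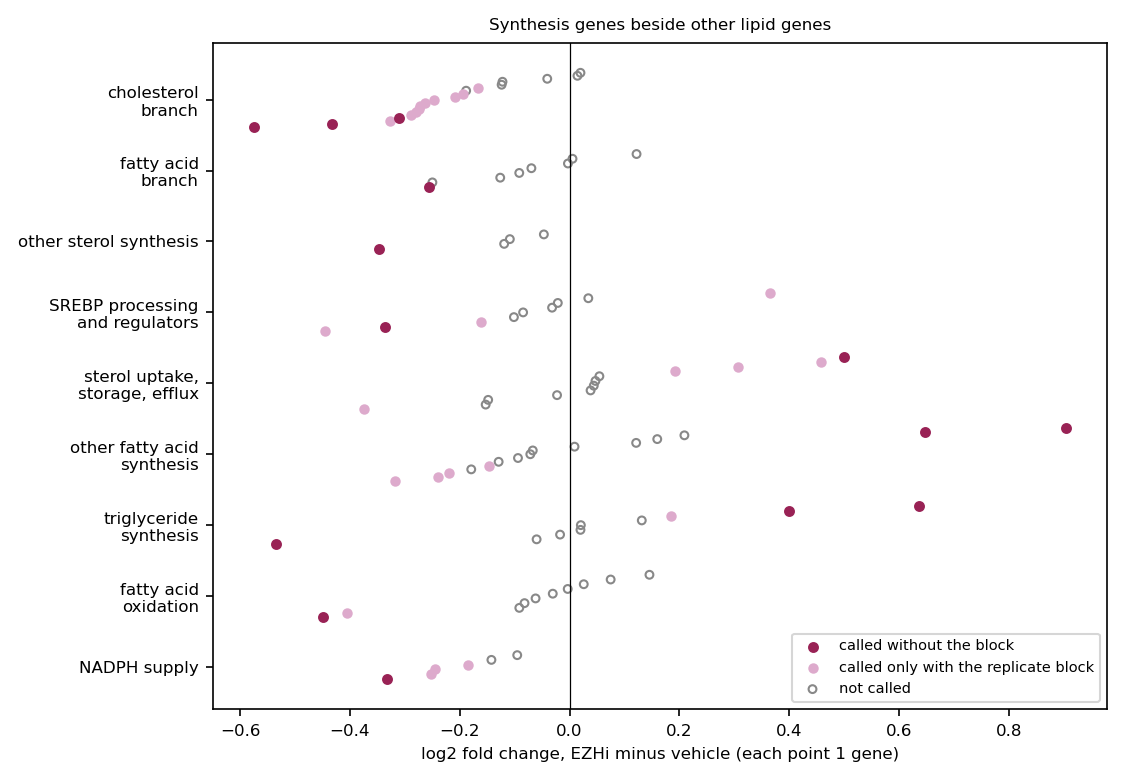
Log2 fold change, EZHi minus vehicle, of the genes in both branches and of those reported here from 7 other lipid gene lists. Dark purple points were called without the block, light purple points only with the replicate block, and grey open points in neither. In these fits both branches and the lists of other sterol synthesis and NADPH supply hold lower calls alone, and ELOVL3 at 0.91 is the point farthest to the right.

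As to the libraries as a whole, read depth is unknown, since the deposited values are normalized for it. Turned back into reads, they summed to between 24.4 and 27.3 in units of 1e6 reads per library, which is the common scale and not the depth. All 8 hepatocyte markers were present, with summed levels of 23845 to 46726 estimated FPKM in vehicle and 26281 to 42834 in EZHi. FGB was the only one of them called without the block, higher by 0.92 on the log2 scale (SE 0.14). With the block APOA1, APOB and FGB were higher and ALB lower. Of 6 cholangiocyte markers 5 were in the table, at sums of 500.5 to 814.7 in vehicle and 617.4 to 856 in EZHi, and CFTR was not. Fibroblast markers (3 of 5, without DCN and LUM) summed to 12.3 to 15 in vehicle and 14.8 to 17.3 in EZHi. Of the leukocyte markers LYZ and CD3E were in the table, and PTPRC, CD68 and MS4A1 were not. LYZ alone made up nearly all of their sum of 1212 to 1685 in vehicle and 1086 to 1556 in EZHi. Endothelial markers (3 of 4, without KDR) summed to 2.26 to 2.72 in vehicle and 3.42 to 7.21 in EZHi, where CDH5 and VWF were called higher, and the part of these levels in the results above was not tested. In bulk RNA, fewer cells of a state and less RNA per cell cannot be told apart.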

How the data were processed

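RNA-seq values of 8 HepG2 libraries were used, 4 EZHi and 4 vehicle, grouped by treatment labels and numbered by title. Per the study's methods, the authors aligned reads with HISAT2 to hg38, counted them over exons without strand with HTSeq, and applied the regularized log of DESeq2 with a correction for mean transcript length. The submitters' processing notes give HISAT2 2.2.1, HTSeq 0.9.1 and DESeq2 1.40.2, whereas the methods name other versions of HISAT2 and DESeq2. As deposited the values are log2, from -6.81 to 19.01, although the table is named for FPKM, and the regularized log understates the changes of genes with few reads. The table held 25604 entries, 1 repeated, of which 25594 genes were found in GENCODE 44 (GRCh38). Estimated FPKM is 2 raised to the value, divided by 25.6, the mean of normalized reads per library in units of 1e6.

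Tests used limma 3.58.1 in R 4.3.3 with the treatment group alone in the model and a trended eBayes prior. They were two-sided, took in the 20153 genes whose mean estimated FPKM reached 0.1, and were adjusted over them (Benjamini-Hochberg, called at adjusted p under 0.05). Residuals of libraries of equal number correlated at 0.31, 0.56, 0.63 and 0.22 in pairs 1 to 4, and those of unequal number at -0.58 to 0.20. The fit with the replicate number as a block is therefore given beside results whose call it changes. The study calls the replicates biologically independent, and what libraries of equal number share is not given. Counts were not used and count models were not run. Alternatives were scaling, filters, a pseudocount, the prior and each library left out. The members and lists were chosen with earlier results of these data known. All 31 members are named, those called with or without the block and the SREBP regulators in full. From each pathway list, genes called without the block are named, at most 5, except some that are not reported here. Other software was Python 3.11.15, matplotlib 3.10.9, pandas 2.3.3 and numpy 2.4.6.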

Additional observations from a re-analysis of the deposited data

Results flagged for a closer look

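In 4 of 66 groups of 4 libraries examined (the 31 synthesis genes and the branch means in each treatment), 1 library stood far from the other 3, where chance gives about 1 in 20, or 3.3. CYP51A1 was at 7.95 in vehicle replicate 3 and between 7.57 and 7.61 in the other vehicle libraries. HSD17B7 was at 9.33 in EZHi replicate 1 and between 9.63 and 9.68 in the others. ACACA was at 5.92 in EZHi replicate 3 and between 5.32 and 5.42 in the others. ELOVL6 was at 9.37 in EZHi replicate 2 and between 9.49 and 9.52 in the others.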

How the results depend on the processing

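The 31 genes were examined under other scalings, filters, a pseudocount of 0.5, another prior, each library left out and the replicate block. The fits that combine the block with a scaling or without a pair were chosen after seeing the data. Of all genes tested, 2644 were called, 6051 with the replicate block, 1579 at an estimated FPKM of at least 1, 5917 with block and centring, 5590 with block and quantile normalization, and 4720, 5043, 4262 and 4124 with the block without pairs 1 to 4. Among the synthesis genes 4 were called, 1 with quantile normalization (FDFT1), 2 when centred, 14 with the block, 11 with block and centring, 10 with block and quantile normalization, and 12, 13, 9 and 12 with the block without pairs 1 to 4. The 9 genes called in all 4 of those last fits were ACAT2, ACLY, DHCR7, FDFT1, HMGCS1, IDI1, MVD, MVK and SQLE. Leaving out 1 library gave 2 to 4, with 2 without vehicle replicate 4 or EZHi replicate 1. In the pathway lists 14 were called, 9 when centred, 31 with the block, 33 with block and centring, 31 with block and quantile normalization, 27, 27, 26 and 26 with the block without pairs 1 to 4, and 9 to 13 with 1 library left out (9 without vehicle replicate 1 or 4). The branch differences moved by less than the SD between libraries of a group, but centring and quantile normalization moved that of the cholesterol branch, to -0.13 and -0.14, by more than the SD of 0.067 between its pairs.

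Values that changed sign belonged to genes that were not called. Centring, with or without the block, gave log2 fold changes of 0.054 for PMVK, 0.0035 for SCD, 0.026 for ELOVL6, 0.092 for FADS1 and 0.028 for SREBF2. Quantile normalization, with or without the block, gave 0.016 for PMVK, 0.011 for ELOVL6, 0.067 for FADS1, 0.059 for SREBF2 and 0.019 for SCAP. With 1 library left out, TM7SF2 ranged from -0.017 to 0.079, SC5D from -0.067 to 0.13, FADS1 from -0.049 to 0.023, FADS2 from -0.11 to 0.12 and SREBF2 from -0.18 to 0.020. With the block, TM7SF2 was -0.029 without pair 2, SC5D -0.012 without pair 1 or 4, ACACA 0.022 without pair 1, FADS1 0.012 and 0.021 without pairs 1 and 4, and FADS2 -0.019 and -0.026 without pairs 2 and 3. The cause was not tested. INSIG1, whose low value is unexplained, cannot be compared, and with no counts no interval from depth can be given.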
